A study of Mus musculus with 6 samples.

Results

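Mouse muscle-derived stem cells (MDSC) and embryonic stem cells (ESC) were compared at 10 genes that carry glucose into the cell and through the early and last steps of glycolysis: the transporter genes Slc2a1 and Slc2a3, the hexokinase genes Hk1 and Hk2, the phosphofructokinase subunit genes Pfkl, Pfkm and Pfkp, the aldolase genes Aldoa and Aldoc, and the lactate dehydrogenase gene Ldha. The genes were chosen by name, as the array probes whose accession maps to those symbols in RefSeq, which gave 14 probes for the 10 genes among 37153 genes and unnamed features on the array. Each was measured in 3 groups of 2 arrays. WT MDSC and Mstn-null MDSC were the slowest adhering cells from hindlimb muscle of male mice aged 5 weeks, wild type or labelled null for myostatin, a secreted inhibitor of muscle growth. They were collected as preplate 6 on day 4, put on matrigel in high glucose DMEM with fetal bovine serum, horse serum and chick embryo extract, and harvested at passage 1 and 70% confluence, with 2 isolations for each genotype. The allele of the null mice, and whether a culture pooled several mice, are not given in the sources used here. W4 is 1 male mouse embryonic stem cell line, taken at passages 12 and 15. It was kept on mitotically inactivated mouse embryonic fibroblasts and plated for 20 minutes on gelatin to remove them, although the labels call the colonies feeder free, and its medium is not given in the sources used here. No group received a treatment.

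Glycolysis turns glucose into pyruvate. Glucose enters through transporters of the Slc2a family, is held in the cell by hexokinases, which phosphorylate it, and is committed to the pathway by phosphofructokinase, a tetramer of liver-type (Pfkl), muscle-type (Pfkm) and platelet-type (Pfkp) subunits. Aldolase then splits the sugar, and lactate dehydrogenase, a tetramer of A (Ldha) and B (Ldhb) chains, converts pyruvate and lactate into each other. Most of these steps have several genes whose use differs between tissues: GLUT1 (Slc2a1) is widespread and GLUT3 (Slc2a3) is a high-affinity transporter best known in neurons and the early embryo, Hk1 is widespread and Hk2 is the main hexokinase of skeletal muscle and of many growing cells, and Aldoc is the aldolase of brain.

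Between 53.3% and 64.6% of the 59305 non-control spots of an array were well above background and none was saturated. Signals are given as log2 relative to the 75th percentile of the array, with a precision set by the small number of arrays. In Mstn, the targeted gene, WT MDSC read -4.90 and -6.71 and the arrays labelled Mstn-null read -3.06 and -2.47, so the probe showed no loss there. The lowest signals well above background were -4.98 and -4.68 on the WT arrays. The reading of WT replicate 1 thus lay just above the limit of its array and that of replicate 2 below its own. This limit is the lowest signal that was flagged, so a signal above it need not be well above background. On the Mstn-null arrays the limits were -4.66 and -5.17, below both readings of that probe. The place of that probe relative to the deleted part is not given in the sources used here, and each direction between the genotypes rests on the labels. The mean of the 12 pluripotency markers separated the groups, at 4.49 and 4.60 on the ESC arrays and -3.50 to -3.31 on the MDSC arrays. Of the 12, 11 were lower and 1 higher in MDSC at a limma adjusted p below 0.05 (31.4% and 28.3% of all genes). The higher one, Nanog, read -0.07 and -0.18 in WT MDSC, -0.20 and -0.15 in Mstn-null MDSC, and -0.77 and -0.66 in ESC. The 20 muscle differentiation markers averaged 3.38 on WT MDSC replicate 1 against -0.38 to -0.25 on the other MDSC arrays, and -2.69 and -2.51 in ESC. Their summed signal, in multiples of the 75th percentile, was 547 on that array, 49.0 to 57.8 on the other MDSC arrays and 9.0 and 16.8 in ESC, with 20, 17 to 18, and 14 to 16 of them well above background. Of the 14 immune markers, 13 had a probe, and they averaged 0.20 and -0.81 in WT, 1.55 and 3.12 in Mstn-null and -2.86 and -2.53 in ESC. Their sums were 70.9 and 53.4, 114 and 319, and 21.8 and 15.3, with 12 of 13 well above background on each MDSC array and 8 and 11 in ESC. Itgam, which weighs most in the WT sums, read 5.50 and 5.27 in WT, 5.27 and 5.09 in Mstn-null, and 3.95 and 3.06 in ESC. It was thus not higher in Mstn-null, and Cd3e read 1.34 to 1.93 on every array. In MDSC against ESC 10 of the 13 were higher in limma and 0 lower (28.3% and 31.4% of all genes). The 13 fibroblast markers averaged 5.44 to 6.66 in MDSC, 2.51 in ESC replicate 1 and 0.59 in ESC replicate 2, with sums of 1584 to 2675, 252 and 158 and all 13, 13 and 12 well above background. The arrays measured whole cultures, in which fewer cells of a type and less RNA per cell cannot be told apart.

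The comparison of MDSC with ESC bears on the stated aim of the series, to describe the potency of MDSC by gene expression. In MDSC of both genotypes, 1 of the 10 genes was higher than in ESC (Hk1), against 28.3% of all 25057 genes tested, and 4 were lower (Slc2a1, Slc2a3, Hk2 and Pfkp), against 31.4% (two-sided limma test at an adjusted p, by Benjamini-Hochberg, below 0.05). Their median log2 difference was -0.64, against -0.03 for all genes tested. In WT MDSC against ESC the counts were again 1 higher and 4 lower (27.1% and 25.9% of all genes), and in Mstn-null MDSC against ESC 1 higher and 4 lower (23.3% and 30.8%). These 2 comparisons share the ESC arrays. All 10 genes were well above background on all 6 arrays. The counts were not tested against those shares. The 10 genes spanned a wide range, from a 253-fold lower signal of Slc2a3 in MDSC to differences in Aldoa and Ldha too small for the test to separate from 0.

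**Figure D1:**
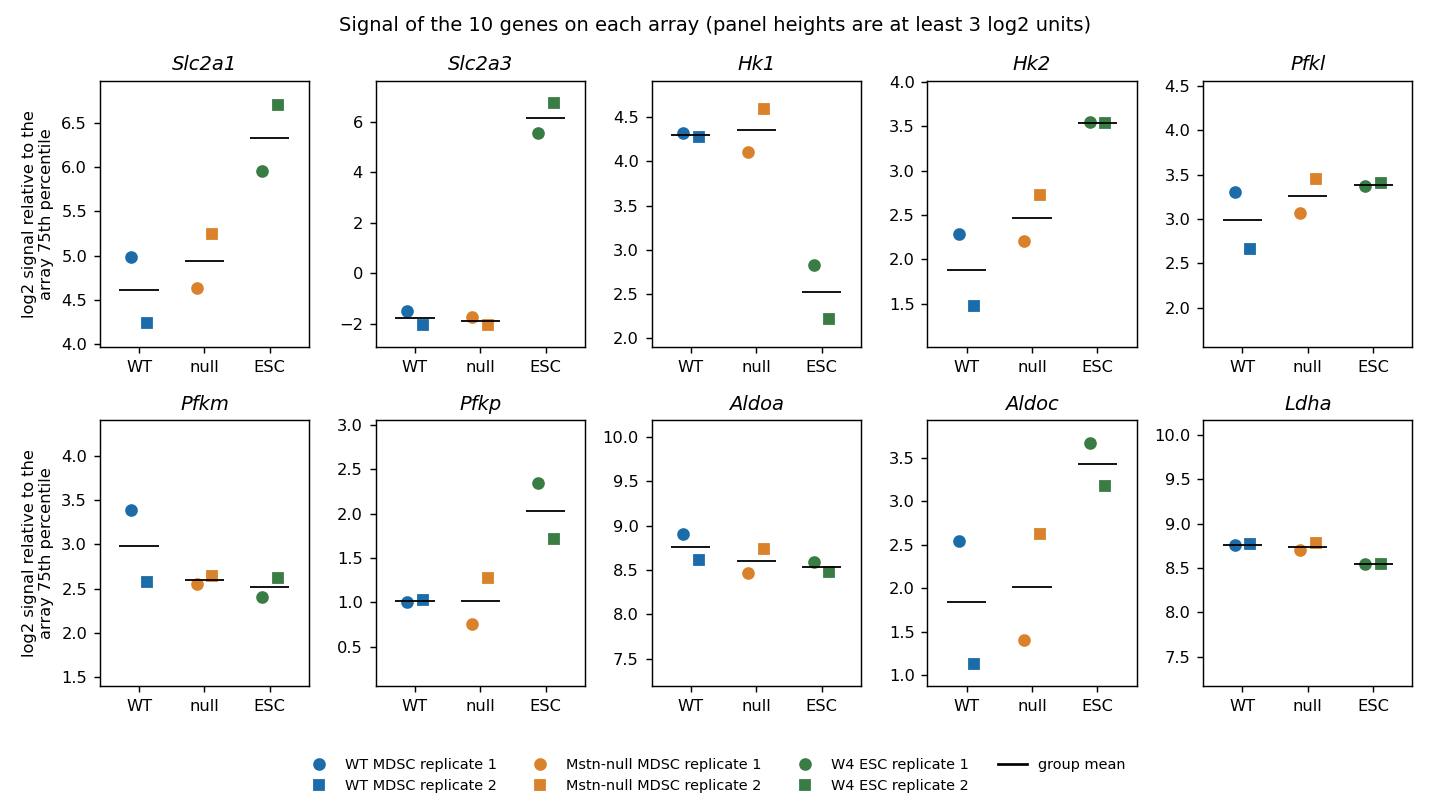
Signal of each of the 10 genes on each array, as log2 relative to the 75th percentile of the array, for WT MDSC (blue), Mstn-null MDSC (orange) and W4 ESC (green), with replicate 1 as circles, replicate 2 as squares and the group mean as a line. Each panel has its own axis, which does not start at 0 and spans at least 3 log2 units. The Slc2a3 points lie between -2.04 and -1.50 in MDSC and at 5.56 and 6.75 in ESC, while the Ldha points span 8.55 to 8.78.

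Start sites of 4 of the 5 genes that changed are shown here because several glycolytic genes are known targets of hypoxia-inducible factors, whose response element holds the core ACGTG or GCGTG. Windows of 250 bases before to 50 bases after the start were taken from a RefSeq table of build GRCm38.p6, which held 17 windows for 9 of the 10 genes, all but Slc2a3. Of these windows 14 held a core on either strand, and each of the 9 genes had at least 1 such window. Over the whole table, 43.8% of 32851 windows held one, as did 46.7% of its 27025 genes in any of their windows. Windows of a gene can overlap and hold the same core, as happens in Aldoa and in Pfkm. Genes also differ in their number of windows, and the counts were not tested against these shares. CACGTG holds the core on both strands and is counted on each. A match describes letters only and is neither a bound site nor a cause of any difference. The windows of Slc2a1 (chr4:119108495-119108794, plus strand), Hk2 (chr6:82774405-82774704, minus strand), Pfkp (chr13:6648722-6649021, minus strand) and Hk1 (chr10:62340372-62340671, minus strand) read as follows, 5′ to 3′ along the gene, with the cores or their reverse complements in capitals.
Slc2a1: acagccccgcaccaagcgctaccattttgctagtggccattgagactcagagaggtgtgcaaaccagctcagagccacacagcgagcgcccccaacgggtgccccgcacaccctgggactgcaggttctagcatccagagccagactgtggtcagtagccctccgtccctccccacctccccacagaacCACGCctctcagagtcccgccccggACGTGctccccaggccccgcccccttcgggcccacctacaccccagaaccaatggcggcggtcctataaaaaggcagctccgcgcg
Hk2: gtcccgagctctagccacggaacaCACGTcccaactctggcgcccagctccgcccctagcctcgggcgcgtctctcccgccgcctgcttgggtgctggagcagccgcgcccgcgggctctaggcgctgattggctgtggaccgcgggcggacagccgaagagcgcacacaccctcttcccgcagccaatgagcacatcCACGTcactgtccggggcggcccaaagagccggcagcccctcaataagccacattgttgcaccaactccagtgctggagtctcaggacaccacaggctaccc
Pfkp: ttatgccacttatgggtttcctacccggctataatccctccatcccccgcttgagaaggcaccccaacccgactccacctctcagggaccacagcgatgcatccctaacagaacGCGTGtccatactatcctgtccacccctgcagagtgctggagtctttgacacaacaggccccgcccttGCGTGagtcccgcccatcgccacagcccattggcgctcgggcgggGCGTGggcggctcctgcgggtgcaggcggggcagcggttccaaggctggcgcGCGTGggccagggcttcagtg
Hk1: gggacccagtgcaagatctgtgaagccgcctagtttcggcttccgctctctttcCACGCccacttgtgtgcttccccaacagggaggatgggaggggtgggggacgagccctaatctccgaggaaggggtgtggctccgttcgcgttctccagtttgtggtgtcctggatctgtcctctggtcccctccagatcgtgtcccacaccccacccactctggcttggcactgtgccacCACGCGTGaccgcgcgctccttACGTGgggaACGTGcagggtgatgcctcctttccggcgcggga
The Slc2a1 window held 2 cores, that of Hk2 held 2, that of Pfkp 4 and that of Hk1 5, so genes lower and higher in MDSC both had them. A second window of Hk1 (chr10:62379859-62380158, minus strand) held 0. In Ldha, which did not pass the test, 1 window held 7 cores (chr7:46845554-46845853, plus strand).

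Of the transporters, Slc2a3 had the widest gap of the 10 genes. Its log2 signal was -1.50 and -2.04 in WT MDSC, -1.74 and -2.03 in Mstn-null MDSC, and 5.56 and 6.75 in ESC. In processed intensity units these were 203, 144, 180 and 135 on the MDSC arrays and 29966 and 69401 on the ESC arrays. The MDSC arrays lay within 0.54 of each other and far below both ESC arrays, while the ESC arrays differed by 1.18. The difference was -7.98 ± 0.39 (SE, n = 4 and 2 arrays, limma adjusted p = 0.000259). Each genotype showed it, at -7.92 ± 0.44 in WT and -8.04 ± 0.44 in Mstn-null (adjusted p = 0.000551 and 0.000481 in limma).

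Slc2a1, the other transporter, differed in the same direction and far less. Its signal was 4.99 and 4.24 in WT MDSC, 4.64 and 5.24 in Mstn-null MDSC, and 5.95 and 6.70 in ESC. Both ESC arrays lay above all 4 MDSC arrays, and the gap of 0.74 between the ESC arrays was as wide as that between the WT arrays. The MDSC mean was 4.78 ± 0.43 (SD, n = 4) and the ESC mean 6.33 ± 0.53 (SD, n = 2), which is a 2.92-fold lower signal in MDSC (-1.55 ± 0.35, SE, limma adjusted p = 0.0163). The call was lost without the ESC array at passage 15, where the difference was -1.18 with an adjusted p of 0.0881 in limma. In each fit with an array left out, the array that remains in its group is assumed to vary like those of the other groups.

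Hk1 and Hk2 moved in opposite directions. Hk1 read 4.32 and 4.27 in WT MDSC, 4.11 and 4.59 in Mstn-null MDSC, and 2.83 and 2.22 in ESC. All MDSC arrays lay at least 1 log2 unit above both ESC arrays. Hk1 was 3.49-fold higher in MDSC (1.80 ± 0.25, SE, limma adjusted p = 0.00344). A second Hk1 probe showed the same order, with 0.75, 0.77, 0.57 and 0.96 on the MDSC arrays and -0.54 and -1.14 on the ESC arrays (1.60 ± 0.24, limma adjusted p = 0.00406 over all 33716 probes tested). On both probes the ESC array at passage 12, which had the higher fibroblast marker mean, read higher than the one at passage 15; what that marker level contributes was not tested. Without that array and WT MDSC replicate 1, the Hk1 difference was 2.09 (limma adjusted p = 0.0216).

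Hk2 read 2.28 and 1.48 in WT MDSC, 2.21 and 2.73 in Mstn-null MDSC, and 3.55 and 3.54 in ESC. The ESC arrays were nearly equal and above every MDSC array, while the MDSC arrays spread over 1.25 log2 units. Hk2 was 2.58-fold lower in MDSC (-1.37 ± 0.29, SE, limma adjusted p = 0.0129). The difference was -1.66 in WT and -1.07 in Mstn-null, and the genotypes themselves differed by 0.59 with overlapping arrays (limma adjusted p = 0.512). Leaving out the ESC array at passage 12 or at passage 15 gave differences of -1.36 and -1.37 that did not pass (limma adjusted p = 0.0630 and 0.0634), with 1 ESC array and the spread taken from the MDSC arrays.

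Among the phosphofructokinase subunits only Pfkp, the platelet type, passed the test. It read 1.00 and 1.02 in WT MDSC, 0.76 and 1.27 in Mstn-null MDSC, and 2.35 and 1.71 in ESC. The MDSC arrays lay below both ESC arrays, with 0.44 between the highest MDSC and the lowest ESC array. The difference was -1.02 ± 0.26 (SE, limma adjusted p = 0.0222), or 2.02-fold. It was the least firm of the 5 calls: the second Pfkp probe, much dimmer, read -2.65 to -2.35 in MDSC and -2.60 and -2.35 in ESC, a difference of -0.0033 (limma adjusted p = 0.988), and the mean of the probes did not pass (-0.51, limma adjusted p = 0.0592). The call was also lost without WT MDSC replicate 1 or 2, Mstn-null MDSC replicate 1 or ESC replicate 1, with adjusted p of 0.0516 to 0.0935 in limma and differences of -1.02 to -0.70.

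Pfkl, the liver-type subunit, read 3.30 and 2.67 in WT MDSC, 3.07 and 3.45 in Mstn-null MDSC, and 3.37 and 3.40 in ESC, so that the ESC arrays lay inside the MDSC range. Its difference was -0.27, with a 95% interval of -0.88 to 0.35 (limma adjusted p = 0.375). Pfkm, the muscle-type subunit, read 3.39 and 2.57 in WT MDSC, 2.55 and 2.64 in Mstn-null MDSC, and 2.41 and 2.62 in ESC. WT MDSC replicate 1 stood above the other 5 arrays, which lay within 0.23 of each other. That array was also the one with the high muscle differentiation markers, and the part of those cells in the Pfkm signal was not tested. The Pfkm probe was printed 10 times on each array with an SD of 0.023 to 0.061 between its spots, which describes spots of 1 array and not the spread between cultures. The difference over all arrays was 0.27, with an interval of -0.41 to 0.95 (limma adjusted p = 0.407), and -0.036 without WT MDSC replicate 1 and ESC replicate 1. With WT MDSC replicate 2 left out, the WT against ESC difference was 0.87 (limma adjusted p = 0.0407), which rests on that 1 WT array and on the spread of the other groups.

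The aldolase genes and Ldha did not pass the test. Aldoa, the aldolase of muscle and most other tissues, read 8.91 and 8.61 in WT MDSC, 8.46 and 8.73 in Mstn-null MDSC, and 8.59 and 8.48 in ESC. These groups overlapped, and the difference of 0.15 had an interval of -0.29 to 0.59. Aldoc read 2.55 and 1.13 in WT MDSC, 1.41 and 2.63 in Mstn-null MDSC, and 3.67 and 3.17 in ESC. All MDSC arrays lay below both ESC arrays, but the isolations of each genotype differed by 1.42 and 1.22, the widest gaps between replicates among the 10 genes. Its difference of -1.49 ± 0.54 (SE, interval -2.89 to -0.10) had a limma adjusted p of 0.0644, which became 0.0498 with normexp background correction and 0.0334 without WT MDSC replicate 1, where the difference was -1.85.

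Ldha read 8.76 and 8.78 in WT MDSC, 8.70 and 8.78 in Mstn-null MDSC, and 8.55 and 8.55 in ESC. On this probe, its brightest, it was the steadiest of the 10 genes, with 0.24 between its highest and lowest array. The MDSC arrays were all slightly above the ESC arrays. The difference of 0.21 (interval -0.13 to 0.54, limma adjusted p = 0.221) passed with quantile normalization (0.49, adjusted p = 0.0276 in limma). Another Ldha probe, which ran more widely from 3.45 to 4.06 over the arrays, gave 0.37 (limma adjusted p = 0.0733). The remaining one, which ran from 5.87 to 6.28, gave 0.24 (limma adjusted p = 0.189). The first of these passed in WT MDSC against ESC (0.52, limma adjusted p = 0.0459). The probe sequences were not used here, so hybridisation of the many Aldoa and Ldha pseudogene copies to these probes was not checked.

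**Figure D2:**
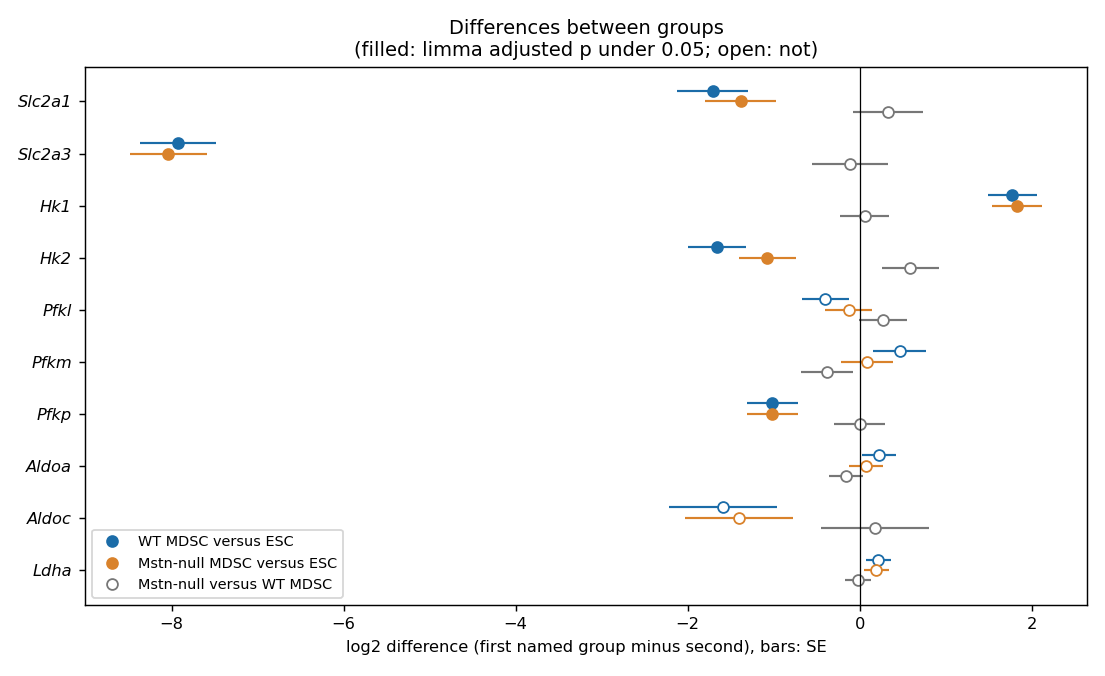
Log2 differences of the 10 genes with SE bars for WT MDSC against ESC (blue), Mstn-null MDSC against ESC (orange) and Mstn-null against WT MDSC (grey), with filled points for limma adjusted p under 0.05. Slc2a3 lies near -8 and Hk1 near 1.8 in both comparisons with ESC, and no grey point is filled.

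Isoform balance was measured as the log2 difference between the probes of a pair on each array, compared between groups, since the level of one probe cannot be set against that of another. In MDSC against ESC the balance of Slc2a1 over Slc2a3 shifted by 6.43 toward Slc2a1, which is 86.4-fold. Centred on the mean of the 6 arrays, the pair stood at 2.03 and 1.82 in WT MDSC, 1.92 and 2.81 in Mstn-null MDSC, and -4.07 and -4.51 in ESC. The balance of Hk1 over Hk2 shifted by 3.17, or 9.0-fold, toward Hk1. It stood at 0.95 and 1.70 in WT MDSC, 0.81 and 0.77 in Mstn-null MDSC, and -1.81 and -2.41 in ESC. Both of these pairs had a gap between the groups wider than the whole spread among the MDSC arrays.

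The lactate dehydrogenase pair followed the B chain. Ldhb, the chain typical of heart and oxidative tissue, read 3.38 and 2.79 in WT MDSC, 3.09 and 3.02 in Mstn-null MDSC, and 5.33 and 5.10 in ESC, and was lower in MDSC (-2.14 ± 0.22, SE, limma adjusted p = 0.00142). Against the brightest Ldha probe this is a shift of 2.35, or 5.10-fold, toward the A chain in MDSC. Aldoa over Aldoc shifted by 1.64, with the ESC arrays at -1.29 and -0.90 and the MDSC arrays between -0.10 and 1.28. Pfkm over Pfkp shifted by 1.29, with ESC at -1.28 and -0.44 and MDSC between 0.03 and 1.04, and it carries the disagreement of the Pfkp probes. These 5 shifts had no overlap between groups, and each gave an exact two-sided permutation p of 0.133 (0.373 after adjustment over 14 pair comparisons), the smallest that 4 against 2 arrays allow, so the design cannot reach 0.05. Pfkl over Pfkp (0.75) and Pfkl over Pfkm (-0.54) overlapped between groups, with an exact permutation p of 0.267 each. How often pairs of other genes lie without overlap, here or between the genotypes, was not counted. Of all genes tested 28.3% were higher and 31.4% lower in MDSC, so a lack of overlap is not particular to these pairs. The 5 shifts lay between 5.84 and 6.66 for the transporters, 2.87 and 3.47 for the hexokinases, 2.20 and 2.57 for lactate dehydrogenase, 1.36 and 1.95 for aldolase, and 0.78 and 1.71 for Pfkm over Pfkp over the alternatives tried.

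**Figure D3:**
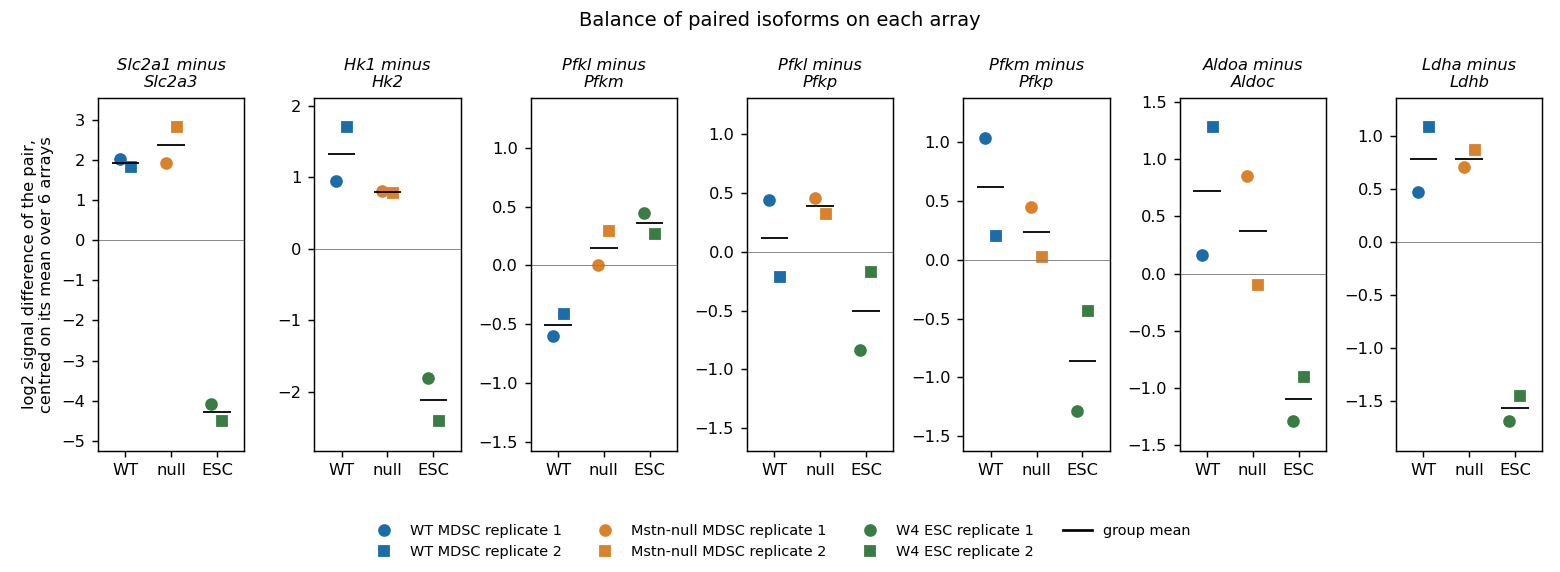
Log2 signal of the first gene minus the second gene of each pair on each array, centred on the mean over the 6 arrays, with arrays and group means marked as in the plot of signals. Each panel has its own axis; the ESC points of the Slc2a1 and Slc2a3 pair lie at -4.07 and -4.51 and its MDSC points between 1.82 and 2.81.

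Between the genotypes none of the 10 genes passed (0% of all genes; 0 of 25057 passed in limma, while 3671 had an unadjusted p under 0.05). With quantile normalization 11 genes passed as higher and 14 as lower on the arrays labelled Mstn-null, and 5 and 3 of 33716 probes did with each probe tested, none of them for the 10 genes. Mstn-null against WT differences ran from -0.38 in Pfkm to 0.59 in Hk2, with overlapping arrays in all 10 genes and in 48.6% of all genes tested. Slide 1 held only the WT arrays and slide 2 the other 4, so genotype and slide cannot be told apart. The same holds for cell type and slide in WT MDSC against ESC, and in part in MDSC of both genotypes against ESC. Within slide 2, where Mstn-null MDSC and ESC can be fitted on their own, Hk1 was higher and Slc2a1, Slc2a3 and Hk2 were lower than in ESC, while Pfkp did not pass (-1.02, limma adjusted p = 0.0643). Of the isoform pairs, Hk1 over Hk2 was lower by 0.53 on the arrays labelled Mstn-null and Pfkl over Pfkm higher by 0.66, both without overlap, with an exact permutation p of 0.333, the smallest that 2 against 2 arrays allow. The other 5 pairs overlapped. The values for Pfkl over Pfkm were -0.60 and -0.42 in WT and 0.0035 and 0.29 in Mstn-null, and the ESC values of 0.45 and 0.27 lay beside the latter.

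The remaining isoforms of the same steps were read from a list of 15 genes, of which 14 had a probe and 12 were tested. In MDSC against ESC 6 rose and 4 fell, with a median of 0.28. The shares of all genes to set beside this and the list counts that follow are 28.3% higher and 31.4% lower, with a median of -0.03, and no list was tested against them. Among sugar transporters Slc2a10 rose by 4.63, Slc2a13, a proton and inositol carrier, by 3.75, Slc2a6 by 3.10 and Slc2a9, a urate carrier, by 3.08. Slc2a5, the fructose transporter, fell by 3.40 on the log2 scale. Slc2a10 and Slc2a9 were well above background on 1 of 2 ESC arrays and Slc2a5 on 2 of 4 MDSC arrays, so these differences are set in part against background signal. Slc2a4, the insulin-responsive transporter of muscle and fat, did not pass (-2.14 ± 1.03, limma adjusted p = 0.129): it read -1.07 and -4.59 in WT MDSC, -4.01 and -3.42 in Mstn-null MDSC, and -1.71 and -0.55 in ESC, and was high among MDSC on the array with the high muscle differentiation markers alone. Slc2a8 did not pass (0.12, limma adjusted p = 0.707).

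Of the other hexokinases, Hk3, known from blood cells, stood well above background on each MDSC array but on neither ESC array, and was at least 15.5-fold higher in MDSC (limma adjusted p = 0.00368). Here and for Hkdc1 the bound sets the mean of the brighter side against, on each dim array, the higher of the gene's own signal and the lowest signal well above background. Hk3 read -2.23 and -3.06 in WT and -0.45 and 1.49 in Mstn-null. Across the MDSC arrays that is the same order as the immune marker means (0.20, -0.81, 1.55 and 3.12), and the part of immune cells in the Hk3 signal was not tested. Hkdc1 stood well above background in ESC but on no MDSC array, and was at least 3.60-fold higher in ESC (limma adjusted p = 0.0245). The testis chain Ldhc fell by 1.71 on the log2 scale in MDSC, with ESC arrays at -1.36 and -3.36 (limma adjusted p = 0.0479).

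Of 14 other glycolytic enzymes tested, 3 rose in MDSC and 0 fell (28.3% and 31.4% of all genes), with a median of 0.29. The risers were Eno3, the enolase of muscle (1.64), Eno2, the enolase of neurons (1.54), and the triose phosphate isomerase gene Tpi1 (0.60). Eno3 read 5.17 and 4.83 in WT, 3.57 and 2.75 in Mstn-null, and 2.08 and 2.80 in ESC, so its Mstn-null arrays overlapped those of ESC. It did not pass between genotypes (-1.84 ± 0.39, limma adjusted p = 0.139). Among genes of lactate and pyruvate transport 5 of 6 rose and 0 fell (28.3% and 31.4% of all genes), with a median of 1.15, and 3 of 6 rose in WT MDSC and 5 of 6 in Mstn-null MDSC (27.1% and 23.3% of all genes). The mitochondrial pyruvate carrier genes Mpc2 and Mpc1 rose by 1.54 and 1.38, Bsg and Emb, partners of the lactate carriers, by 1.24 and 1.06, and the lactate carrier gene Slc16a1 by 0.57. Slc16a1 read -2.43 and -2.47 in WT, -0.85 and -0.84 in Mstn-null, and -2.14 and -2.29 in ESC. Its Mstn-null arrays alone stood above ESC, and the genotype difference of 1.61 ± 0.16 was just short of the threshold (limma adjusted p = 0.0566). Eno3 and Slc16a1 were singled out in that comparison after their values were seen.

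Of 16 regulators of the switch between glycolysis and mitochondrial use of pyruvate, 5 rose and 5 fell, shares near those of all genes (28.3% and 31.4%), with a median of 0.10. The pyruvate dehydrogenase kinases, which block the entry of pyruvate into the citric acid cycle, divided by isoform: Pdk4, Pdk2 and Pdk3 rose by 1.49, 1.44 and 1.38, while Pdk1 fell by 1.64 on the log2 scale in MDSC. Pdk1 read 1.43 and 0.70 in WT, 1.1 and 1.71 in Mstn-null, and 2.71 and 3.03 in ESC. Of the opposing phosphatases Pdp1 rose by 1.13 and Pdp2 fell by 0.93. Of the enzymes that set fructose 2,6-bisphosphate, an activator of phosphofructokinase, Pfkfb4 rose by 2.17 and Pfkfb1 fell by 2.52. Txnip, an inhibitor of glucose uptake, fell by 1.30 and Tigar by 0.66. A list of 20 hypoxia-inducible factors, regulators and targets had 19 tested genes, of which 11 rose and 2 fell (28.3% and 31.4% of all genes), with a median of 0.96. Adm rose by 5.15, P4ha2 by 4.08, the carbonic anhydrase gene Car9 by 3.34, P4ha1 by 3.29 and Vegfa by 2.81, while Hif3a fell by 5.47 and Hif1an by 0.81. Hif3a was well above background on 1 of 4 MDSC arrays, so its difference is set in part against background signal.

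Among 19 genes of glycogen metabolism and gluconeogenesis 11 rose and 3 fell (28.3% and 31.4% of all genes), with a median of 1.09. Among those that rose were Ppp1r3c (4.46), which targets a phosphatase to glycogen, the glycogen phosphorylase gene Pygl (3.37), the glycogenin gene Gyg (2.13) and Pgm1 (2.10). The fructose bisphosphatase genes Fbp1 and Fbp2, which oppose phosphofructokinase, fell by 3.25 and 2.70, and Phkg1 by 0.92. Fbp1 and Fbp2 were well above background on 1 of 4 MDSC arrays each and Ppp1r3c on 1 of 2 ESC arrays, so these 3 differences too are set in part against background signal. Of 8 pentose phosphate genes Pgd, of the oxidative branch, rose by 1.34, and Taldo1 and Tkt, of the other branch, fell by 0.65 and 0.64. None of the genes of these 7 lists passed between the genotypes.

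**Figure D4:**
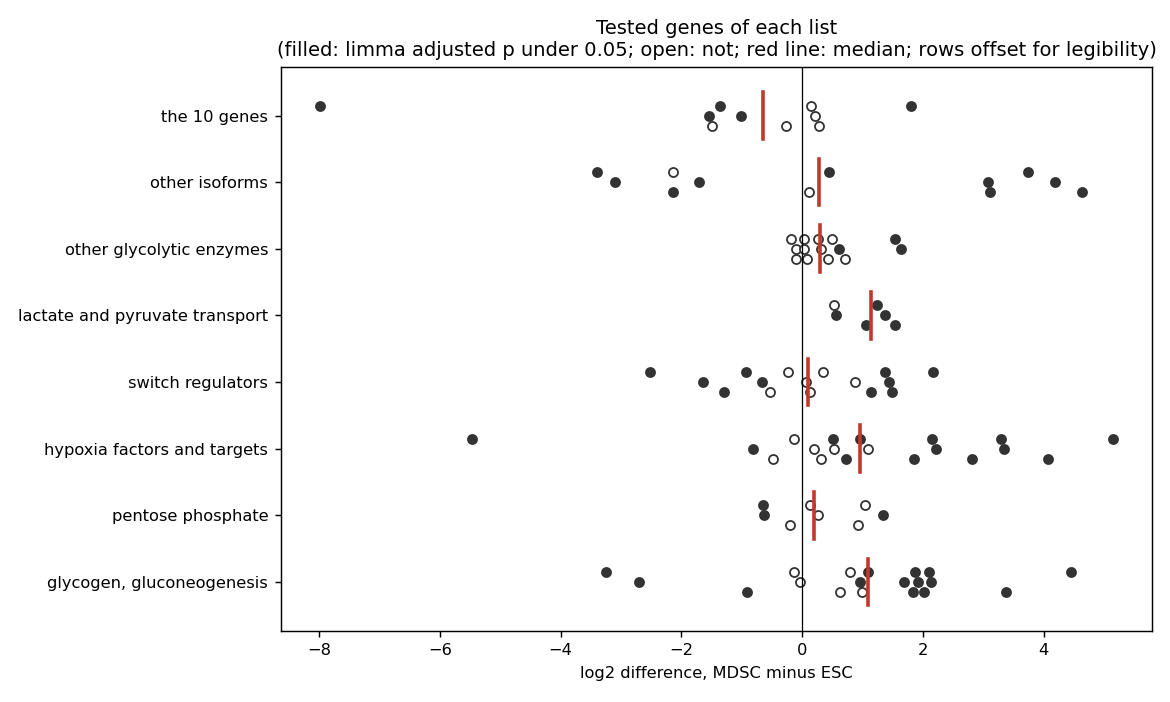
Log2 difference of MDSC minus ESC for each tested gene of the 10 genes and 7 pathway lists, filled where limma adjusted p was under 0.05, with the median as a red line and points offset vertically for legibility. The medians are -0.64 for the 10 genes, 1.15 for lactate and pyruvate transport and 1.09 for glycogen and gluconeogenesis.

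The genes most like each of the 10 were those with the smallest root mean square difference of row-centred log2 signals over the 6 arrays, out of 12402 named genes that stood well above background on each. For Slc2a1 these were Map3k15 (0.11), Pdk1 (0.13) and Tom1l1 (0.17). For Slc2a3 they were Car2 (0.38), Fbxo15 (0.56) and Esrrb (0.61). Hk1 was nearest to Mblac2, Pkd1 and Lrrk2 (0.086 to 0.094), and Hk2 to Rab33a, Pitpnc1 and Zfp612 (0.12 to 0.15). Pfkp was nearest to Dmtf1, Huwe1 and Vps13a (0.14 to 0.15), and Aldoc to Grik5, Pitpnc1 and Ptgds (0.22 to 0.27). The nearest genes of Pfkl were Pisd-ps1, Homer1 and Rell1, those of Pfkm Ank2, Zfp395 and Caln1, those of Aldoa included Nf1 and Myh10, and those of Ldha Pebp1, Gramd3 and Kif3c. The 6 arrays fall in 3 groups, so this likeness includes shared group means, and it is a description with no test.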

How the data were processed

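Cy3-labelled RNA (0.5 µg input) of each of 6 cultures was hybridised to its own 1-colour Agilent array, per the labels' protocols. The deposited files hold spot intensity values from Agilent Feature Extraction (run by the authors, 10.7.1.1 per the file headers, 9.1 per the submitters' processing notes), background corrected and unscaled. The array design used build mm9, per the file headers, so no probe coordinates are given.

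Values are log2 of the processed intensity minus the 75th percentile of the array. Flagged outlier spots (100 to 122 per array) were dropped and the spots of each probe averaged. Of 55681 probes 26413 matched a symbol in the RefSeq table. A gene was represented by its brightest probe and tested where both arrays of 1 or more groups had it well above background (25057 of 37153). The 3 group means were fitted with limma 3.58.1 in R 4.3.3 (two-sided, Benjamini-Hochberg, threshold 0.05), with 3 residual and 2.02 prior degrees of freedom. MDSC against ESC is the mean of both genotype means minus the ESC mean. The ESC arrays are passages of 1 line, so p-values measure the spread between these cultures. Pair shifts were compared by exact permutation over arrays. The steps were tested on simulated data. The 10 genes and all lists were chosen with earlier results of these data known. Named list genes were those past the threshold with the 5 largest rises and 5 largest falls, and other isoforms of the same enzymes. A few genes that this rule names are not reported here. Alternatives were quantile normalization, median centring, normexp (offset 50, on the median signal, as the files give no mean signal), other filters, the mean over probes, each probe, only the groups compared, slide 2 alone, a variance trend, a replicate block and each array left out, with the array remaining in that group assumed to vary like the others.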

Additional observations from a re-analysis of the deposited data

How the results depend on the processing

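Slc2a3 and Hk1 passed in all 3 comparisons with ESC under every alternative run. For the 10 genes, the count lower in MDSC than in ESC (4) ran from 2 to 4 with 1 array left out. In WT MDSC against ESC the count higher ran from 1 to 2 and the count lower from 2 to 4. In Mstn-null MDSC against ESC the count lower ran from 1 to 3 and was 2 with quantile normalization, 1 with median centring, 1 with no filter on dim probes and 2 without WT MDSC replicate 1 and ESC replicate 1, a pair left out after the data were seen. Quantile normalization gave 2 higher in MDSC and 2 higher in Mstn-null MDSC against ESC. The count lower in MDSC of both genotypes than in ESC was 5 with normexp and 3 with the mean over probes. The sign turned only in differences that did not pass. Without WT MDSC replicate 1 and ESC replicate 1, Pfkm turned to -0.023 in Mstn-null MDSC against ESC and to 0.026 between genotypes, with Pfkp at -0.0093 and Slc2a3 at 0.16. Against ESC, Mstn-null Pfkl turned to 0.095 with median centring, and with 1 array left out Pfkl ran from -0.32 to 0.061, Aldoa from -0.068 to 0.20 and Pfkm from -0.023 to 0.19. With 1 array or that pair left out, Pfkm ran from -0.036 to 0.48 in MDSC and from -0.049 to 0.87 in WT MDSC against ESC. Between genotypes Ldha turned to 0.12 with quantile normalization and 0.14 with median centring, Slc2a3 to 0.047 with median centring, and Pfkp to -0.045 with normexp and -0.020 with the mean over probes. With 1 array left out, the genotype differences ran from -0.53 to 0.89 in Aldoc, -0.19 to 0.30 in Hk1, -0.26 to 0.26 in Pfkp, -0.044 to 0.70 in Slc2a1, -0.38 to 0.16 in Slc2a3, -0.045 to 0.59 in Pfkl, -0.79 to 0.026 in Pfkm and -0.064 to 0.018 in Ldha. The genotype shift of Ldha over Ldhb turned to -0.010 with normexp and -0.13 with the mean over probes. The causes were not tested. Median centring moved the median of all genes in MDSC against ESC from -0.03 to 0.12. The labels do not tie isolation numbers across genotypes, and same-numbered isolations deviated with a correlation of -0.40. With the replicate block 0 of the 10 genes passed between genotypes, and 0 with the numbers crossed, an alternative added after the data were seen. With 2 arrays per group, differences of the size of those in Pfkl, Pfkm, Aldoa and Ldha were not separable from 0.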

Other observations

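The order of the 4 MDSC arrays differed between these gene groups. WT MDSC replicate 2 was the lowest MDSC array for 5 of the 10 genes and Mstn-null MDSC replicate 1 for the other 5. WT MDSC replicate 2 was also the lowest for 10 of 12 other isoforms, 5 of 6 genes of lactate and pyruvate transport and 14 of 19 hypoxia genes, and the highest for 8 of 8 pentose phosphate genes. Over all 25057 genes tested it was the lowest MDSC array for 22.8% and the highest for 43.7%, and Mstn-null MDSC replicate 1 was the lowest for 18.8%. Mstn-null MDSC replicate 1 was the lowest for 8 of 14 other glycolytic enzymes. In that group both WT arrays lay above the MDSC mean on average (by 0.28 and 0.13) and both Mstn-null arrays below it (-0.23 and -0.18). Over all genes tested these deviations had the same signs, at 0.040 and 0.060 in WT and -0.032 and -0.068 in Mstn-null. Mstn-null MDSC replicate 2 was the highest MDSC array for 7 of the 10 genes, against 19.3% of all genes tested. These orders were noticed after the values were seen and were not tested.

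Between genotypes, 2 other genes of the lists stood out after their values were seen, and none passed. The pyruvate kinase gene Pkm read 7.16 and 7.18 in WT, 6.39 and 6.52 in Mstn-null and 6.64 and 6.83 in ESC (-0.72 ± 0.16 for Mstn-null against WT, limma adjusted p = 0.153). Hk3 was higher by 3.16 ± 0.68 on the arrays labelled Mstn-null (limma adjusted p = 0.142).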
